A study of Mus musculus with 6 samples.

Results

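The 48 genes described here encode ribosome biogenesis and nucleolar factors, from subunits of RNA polymerase I to the proteins that release finished ribosomal subunits. They were chosen by gene name for their known roles, and all 48 were present among the 57180 genes measured. RNA was sequenced from lymphocytes isolated from Hepa1-6 tumors, which grow from a mouse hepatoma line. All the mice were injected by tail vein with TREND, a delivery system carrying plasmids for CasRx, a CRISPR nuclease that cuts RNA. In the SLC43A2 sgRNA group (3 libraries, genotype given as an SLC43A2 knockdown) the guide targets SLC43A2, which carries methionine and other large neutral amino acids into cells. In the Mock sgRNA group (3 libraries, genotype given as Mock) a mock guide took its place. Dose, time after injection, mouse strain, sex and age are not given in the labels used here. Neither is it given whether each library is 1 mouse or a pool, so the p-values measure the spread between these libraries, which may be technical.

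Ribosome production starts in the nucleolus, where RNA polymerase I transcribes a long precursor that holds most of the ribosomal RNAs. Small nucleolar ribonucleoproteins modify and help to cut this precursor, box C/D particles by methylating riboses and H/ACA particles by turning uridines into pseudouridines. A large early particle, the small subunit processome, forms on the growing transcript, and other sets of factors build the large subunit, prepare both subunits for export and then leave them. Lymphocytes are known to raise ribosome production when they are activated and grow, and the transcription factor MYC is a well-known activator of many of these genes.

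The values are TPM, the length-adjusted share of a library that a gene's transcripts take, so depth and counting error are unknown. The test, limma on log2(TPM + 1), covered the 13759 genes that averaged 1 TPM or more. Libraries correlated at 0.949 to 0.952 within SLC43A2 sgRNA, at 0.920 to 0.932 within Mock sgRNA and at 0.837 to 0.883 between the groups. Slc43a2 itself averaged 3.35 ± 0.885 TPM in SLC43A2 sgRNA and 5.22 ± 1.30 TPM in Mock sgRNA (SD, n = 3 each; limma log2 difference -0.52, adjusted p = 0.113). The lymphocyte label was checked against T cell markers, whose summed level was 4389 to 4595 TPM in SLC43A2 sgRNA and 4940 to 6030 TPM in Mock sgRNA, with 1 of 10 higher and 2 lower. Photoreceptor markers, included because the protocol text opens with a clipped word read here as retinas, overlapped between the groups and stayed low, at 5.41 to 12.5 TPM in SLC43A2 sgRNA and 5.88 to 10.6 TPM in Mock sgRNA. Transcripts of several other cell types differed between the groups by more than those of T cells. Summed plasma cell markers (7 of 8 lower) were at 778 to 885 TPM in SLC43A2 sgRNA and 22324 to 23890 TPM in Mock sgRNA, and B cell markers (9 of 9 tested lower) at 24.8 to 25.7 TPM in SLC43A2 sgRNA and 316 to 416 TPM in Mock sgRNA. Macrophage and monocyte markers (9 of 10 tested lower) were at 63.5 to 70.9 TPM in SLC43A2 sgRNA and 577 to 675 TPM in Mock sgRNA, and neutrophil markers (8 of 8 tested lower) at 105 to 127 TPM in SLC43A2 sgRNA and 458 to 650 TPM in Mock sgRNA. Each of these lists stood apart between the groups. NK cell markers (7 of 8 lower) were at 112 to 118 TPM in SLC43A2 sgRNA and 247 to 306 TPM in Mock sgRNA, and erythroid markers (6 of 7 tested lower) at 40.6 to 51.6 TPM in SLC43A2 sgRNA and 961 to 1121 TPM in Mock sgRNA. Hepatocyte and hepatoma markers (1 of 3 tested lower) were at 6.08 to 8.47 TPM in SLC43A2 sgRNA and 21.3 to 37.8 TPM in Mock sgRNA, with Alb, Ttr and Serpina1a listed at 0 in all 6 libraries. Y-linked transcripts differed as well, with Eif2s3y at 0.79 to 1.36 TPM in SLC43A2 sgRNA and 45.3 to 55.6 TPM in Mock sgRNA. The X-linked transcript Xist was at 9.64 to 11.9 TPM in SLC43A2 sgRNA and 3.18 to 5.40 TPM in Mock sgRNA. The Mock sgRNA libraries thus held both, and whether they mix mice of both sexes was not tested. The part of these differences in the results on ribosome biogenesis was not tested, and a difference in sex between the mice of the groups cannot be told apart from the guide.

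Ribosome biogenesis genes were higher in SLC43A2 sgRNA. Of the 48 genes, 36 rose past an adjusted p of 0.05 and 0 fell (limma, adjusted over all 13759 genes), where 22.8% of all tested genes were called higher and 22.2% lower (45.1% in either direction). At an unadjusted p under 0.05, 41 were higher and 0 lower, against 3814 higher and 3622 lower of all 13759 tested genes. The median log2 difference over the 48 genes was 0.93 (range -0.01 to 1.79), against 0.03 over all tested genes and 0.16 over the 10463 protein-coding genes tested, of which 28.1% were called higher. All 48 passed the filter on low values, and among the 8381 tested genes at least as abundant as the lowest of them, Rrp12, 2692 were called higher and the median was 0.22. In 42 of the 48 genes every SLC43A2 sgRNA library lay above every Mock sgRNA library, and in 0 the reverse held, against 28.7% and 28.3% of all tested genes. A called rise of at least 1 on the log2 scale was found in 16 of the 48 genes and in 8.24% of all tested genes. When each library was set relative to its T cell receptor transcripts, 42 of the 48 genes were called higher and 0 lower, with a median of 1.10 against 0.17 for all tested genes. That scaling also raised the share of all tested genes called higher, to 29.2% from 22.8%, with 2446 genes called lower. In bulk RNA, more cells of an expressing type and more of a transcript per cell cannot be told apart.

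**Figure D1:**
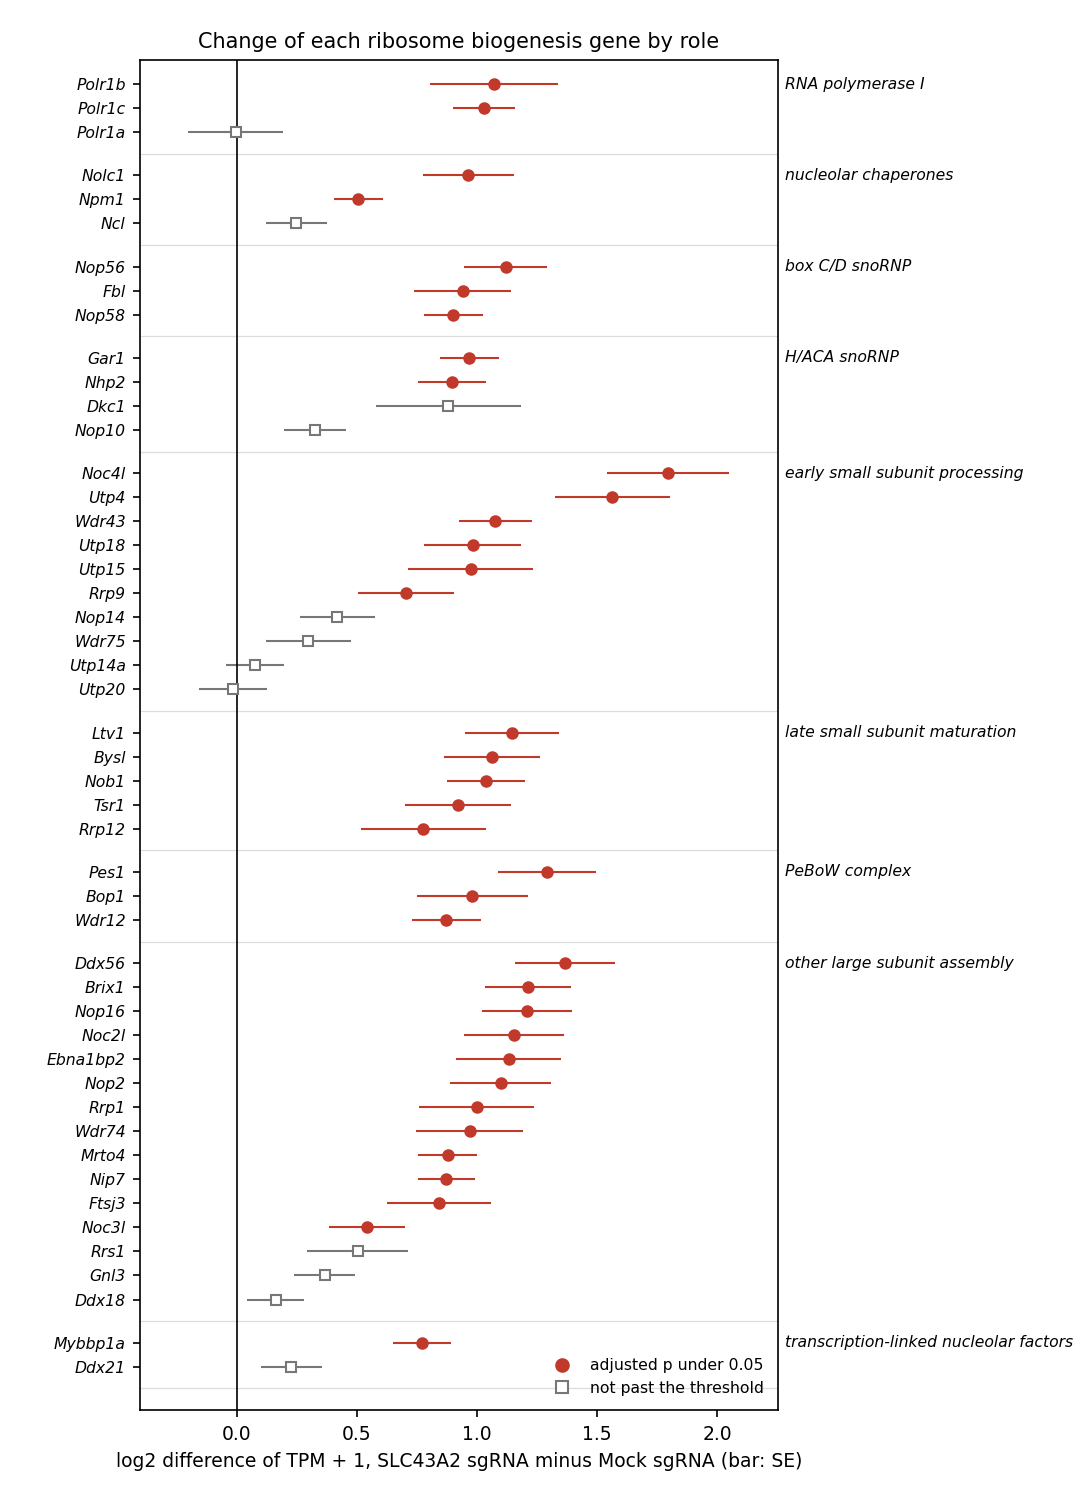
Log2 difference of TPM + 1, SLC43A2 sgRNA minus Mock sgRNA, for each of the 48 genes, grouped by role (point: limma estimate; bar: SE; filled circle: adjusted p under 0.05; open square: not past it). Called rises run from 0.51 (Npm1) to 1.79 (Noc4l), and the 12 open squares lie between -0.01 (Utp20) and 0.88 (Dkc1).

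Together the 48 genes took 0.776%, 0.711% and 0.733% of the transcripts in SLC43A2 sgRNA replicates 1, 2 and 3, and 0.422%, 0.431% and 0.490% in Mock sgRNA replicates 1, 2 and 3. The means were 0.740% ± 0.0334 in SLC43A2 sgRNA and 0.447% ± 0.0370 in Mock sgRNA (SD, n = 3 each), a 1.65-fold difference. The groups did not overlap (exact permutation test, two-sided, p = 0.1, the minimum for 3 libraries a group). Protein-coding transcripts made up 86.3 to 86.9% of the SLC43A2 sgRNA and 76.9 to 79.1% of the Mock sgRNA libraries, and as a share of protein-coding transcripts the 48 genes took 0.855% ± 0.0352 in SLC43A2 sgRNA and 0.574% ± 0.0398 in Mock sgRNA, a 1.49-fold difference. The typical gene of the set changed by more than this sum. Its median level was 87.0 ± 8.76 TPM in SLC43A2 sgRNA and 42.8 ± 2.31 TPM in Mock sgRNA, a 2.03-fold difference. The abundant genes Npm1 and Ncl, with log2 differences of 0.51 and 0.25, together made up 27.4% ± 0.613 of the set's TPM in SLC43A2 sgRNA and 33.5% ± 2.68 in Mock sgRNA.

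**Figure D2:**
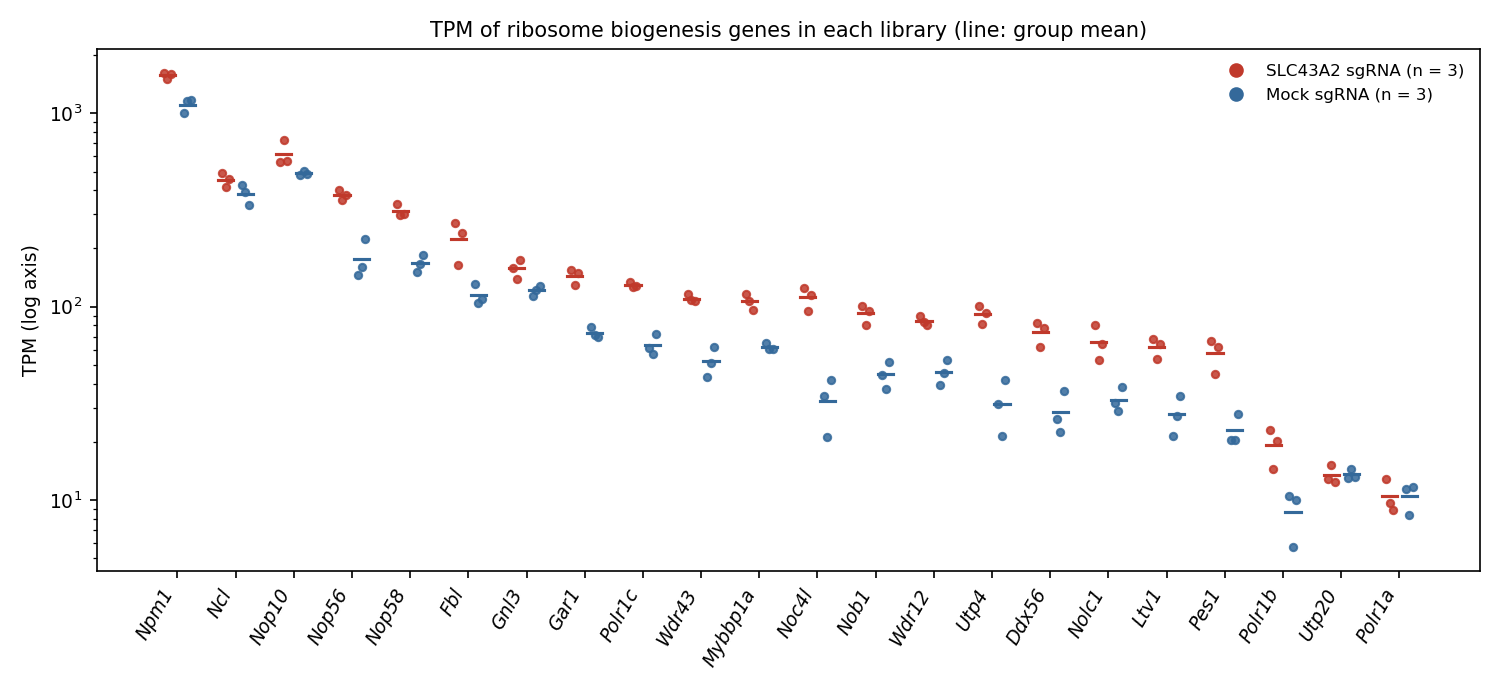
TPM (log axis) of 22 of the genes in each of the 6 libraries, in approximate order of mean level (points: libraries, n = 3 a group; lines: group means). By mean level Nop10 is above Ncl, and Mybbp1a above Wdr43. Noc4l stands at 95.6 to 126 TPM in SLC43A2 sgRNA and 21.2 to 42.0 TPM in Mock sgRNA, while the points of Ncl, Utp20 and Polr1a overlap between the groups.

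RNA polymerase I itself was represented by 3 genes, of which 2 rose. Polr1c (ENSMUSG00000067148; GRCm38 chromosome 17, 46243920 to 46248054, minus strand), a subunit shared by RNA polymerases I and III, had 134, 127 and 128 TPM in SLC43A2 sgRNA and 60.9, 56.7 and 72.1 TPM in Mock sgRNA (log2 difference 1.03, SE 0.13, limma adjusted p = 0.0013). Polr1b, the second-largest subunit, had 23.1, 14.5 and 20.1 TPM in SLC43A2 sgRNA and 10.5, 5.71 and 9.99 TPM in Mock sgRNA (1.07, SE 0.27, adjusted p = 0.0163). Every SLC43A2 sgRNA library was above every Mock sgRNA library for both genes. The call for Polr1b was lost without SLC43A2 sgRNA replicate 1 (0.93, adjusted p = 0.0665) and without SLC43A2 sgRNA replicate 3 (1.03, adjusted p = 0.0709). Polr1a, the largest and catalytic subunit, did not pass, with 12.8, 9.63 and 8.93 TPM in SLC43A2 sgRNA and 11.4, 8.35 and 11.6 TPM in Mock sgRNA (log2 difference -0.00, SE 0.20, adjusted p = 0.988). Its groups overlapped. With trends in transcript length and GC content removed, the Polr1a difference was 0.41 (limma adjusted p = 0.0791). The TPM ratio of Polr1c to Polr1a was 12.7 ± 2.00 in SLC43A2 sgRNA and 6.11 ± 0.742 in Mock sgRNA (SD, n = 3 each), without overlap. The exact permutation p was 0.1, the minimum for 3 libraries a group, so this test cannot decide whether the ratio differed.

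Of the nucleolar chaperones, Npm1 and Nolc1 rose and Ncl did not pass the threshold. Npm1 (ENSMUSG00000057113; chromosome 11, 33152287 to 33163206, minus strand) encodes nucleophosmin, a histone and ribosomal protein chaperone of the outer nucleolus. It was the most abundant gene of the set, at 1616, 1499 and 1601 TPM in SLC43A2 sgRNA and 998, 1162 and 1168 TPM in Mock sgRNA. Its 3 SLC43A2 sgRNA libraries all lay above the Mock sgRNA libraries, by a log2 difference of 0.51 (SE 0.10, adjusted p = 0.0073). Npm1 is known to have processed pseudogenes, and reads shared with them were not measured here. Nolc1, a scaffold that carries small nucleolar ribonucleoproteins, had 80.4, 53.0 and 64.1 TPM in SLC43A2 sgRNA and 31.8, 28.9 and 38.4 TPM in Mock sgRNA (0.96, SE 0.19, adjusted p = 0.0070). Ncl (nucleolin, an RNA-binding protein of ribosomal precursor transcripts) had 489, 416 and 458 TPM in SLC43A2 sgRNA and 426, 391 and 334 TPM in Mock sgRNA (0.25, SE 0.13, adjusted p = 0.155). The lowest SLC43A2 sgRNA library was below the highest Mock sgRNA library for Ncl. With trends in transcript length and GC content removed, the Ncl difference was 0.63 (adjusted p = 0.0029), past the threshold, and with quantile normalization it was -0.0061.

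The set held 3 protein genes of the box C/D particle, and all 3 rose. Snu13 was placed in a list of other genes described below. Nop56 (ENSMUSG00000027405; chromosome 2, 130274430 to 130279313, plus strand), a core scaffold of the particle, had 402, 356 and 378 TPM in SLC43A2 sgRNA and 146, 160 and 223 TPM in Mock sgRNA (log2 difference 1.12, SE 0.17, adjusted p = 0.0028). Its partner Nop58 had 339, 299 and 302 TPM in SLC43A2 sgRNA and 151, 167 and 185 TPM in Mock sgRNA (0.90, SE 0.12, adjusted p = 0.0017). Fbl (fibrillarin, the methyltransferase) had 270, 165 and 240 TPM in SLC43A2 sgRNA and 131, 104 and 110 TPM in Mock sgRNA (0.94, SE 0.20, adjusted p = 0.0097). No library of one group reached into the other for Nop56, Nop58 and Fbl. The TPM ratio of Nop56 to Fbl stood at 1.74 ± 0.364 in SLC43A2 sgRNA and 1.56 ± 0.461 in Mock sgRNA, and Nop58 to Fbl at 1.44 ± 0.324 in SLC43A2 sgRNA and 1.48 ± 0.287 in Mock sgRNA, with overlapping groups.

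In the H/ACA particle Gar1 and Nhp2 rose, while Dkc1 and Nop10 did not pass. Gar1 and Nhp2 encode core proteins of the particle. Gar1 had 155, 129 and 149 TPM in SLC43A2 sgRNA and 78.2, 71.4 and 69.8 TPM in Mock sgRNA (log2 difference 0.97, SE 0.12, adjusted p = 0.0014). Nhp2 had 443, 549 and 427 TPM in SLC43A2 sgRNA and 237, 239 and 283 TPM in Mock sgRNA (0.90, SE 0.14, adjusted p = 0.0029). Both genes showed a clear gap between the groups. Dkc1 (dyskerin, the pseudouridine synthase) had 210, 172 and 170 TPM in SLC43A2 sgRNA and 89.0, 67.7 and 160 TPM in Mock sgRNA (0.88, SE 0.30, adjusted p = 0.0501). The third Mock sgRNA library stood close to the SLC43A2 sgRNA libraries, and without it the difference was 1.22 (adjusted p = 0.0051). Nop10, the smallest of these proteins, had 562, 728 and 564 TPM in SLC43A2 sgRNA and 479, 506 and 483 TPM in Mock sgRNA (0.33, SE 0.13, adjusted p = 0.0772). Nop10 passed the threshold with libraries scaled to T cell receptor transcripts (0.50, adjusted p = 0.0108) and with trends in length and GC content removed (0.62, adjusted p = 0.0014). The groups of Dkc1 and Nop10 did not overlap, so in all 4 genes SLC43A2 sgRNA was the higher group.

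Early small subunit processing held both the largest rise of the set and several genes that did not pass the threshold. Of 10 genes, 6 rose. Noc4l (ENSMUSG00000033294; chromosome 5, 110648418 to 110653417, minus strand), which works with Nop14 in small subunit maturation, had 126, 95.6 and 115 TPM in SLC43A2 sgRNA and 34.5, 21.2 and 42.0 TPM in Mock sgRNA (log2 difference 1.79, SE 0.26, adjusted p = 0.0021; 3.44-fold in TPM). Its difference was larger than that of 98.5% of tested genes. Utp4, of UtpA, the subcomplex that binds the growing transcript early, had 101, 81.7 and 93.2 TPM in SLC43A2 sgRNA and 31.3, 21.4 and 41.6 TPM in Mock sgRNA (1.56, SE 0.24, adjusted p = 0.0027). Wdr43, also of UtpA and the most abundant of these 10 genes, had 116, 108 and 106 TPM in SLC43A2 sgRNA and 43.4, 51.4 and 61.5 TPM in Mock sgRNA (1.08, SE 0.15, adjusted p = 0.0020). For each of the 3 genes the lowest SLC43A2 sgRNA library was well above the highest Mock sgRNA library. Utp18, of the UtpB subcomplex, rose by 0.98 and Utp15, of UtpA, by 0.97, and Rrp9, a protein of the U3 small nucleolar particle, by 0.70. The calls for Utp15 and Rrp9 were lost without SLC43A2 sgRNA replicate 1 or 3 or Mock sgRNA replicate 1 or 2, with an adjusted p of up to 0.0894 for Utp15 and up to 0.0938 for Rrp9.

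The other 4 early genes did not pass. Utp20, a very long scaffold protein of the processome, had 12.8, 15.2 and 12.4 TPM in SLC43A2 sgRNA and 13.0, 14.6 and 13.2 TPM in Mock sgRNA (log2 difference -0.01, SE 0.14, adjusted p = 0.942; 0.40 with trends in length and GC content removed, adjusted p = 0.0472). Utp14a, which activates a helicase of the processome in yeast, differed by 0.08 (adjusted p = 0.618), and Wdr75, of UtpA, by 0.30 (adjusted p = 0.204). The libraries of the groups overlapped for these 3 genes. Nop14, the partner of Noc4l, differed by 0.42 without overlap (adjusted p = 0.0648). Leaving out Mock sgRNA replicate 3 brought Nop14 past the threshold (0.51, adjusted p = 0.0421), and leaving out Mock sgRNA replicate 2 did so for Wdr75 (0.46, adjusted p = 0.0415). Within UtpA, then, Utp4, Wdr43 and Utp15 rose and Wdr75 did not pass.

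Promoters were compared because most of these genes rose. CACGTG, the E-box that MYC and several related factors bind, is also a known feature of such promoters. Sequences from 250 bases before to 50 bases from the start site were found for 43 of the 48 genes in RefSeq (GRCm38.p6), and Bop1, Fbl, Npm1, Rrp12 and Rrs1 were not matched. CACGTG, which reads the same on both strands, was in the promoter of 9 of the 43 genes (20.9%), in 1012 of 8362 tested protein-coding genes (12.1%) and in 2187 of 27025 genes with a promoter sequence (8.09%). Among the 9 were 8 of 32 genes that rose and 1 of 11 that did not. The 9 genes are Ltv1, Mybbp1a, Nop2, Pes1, Tsr1, Utp18, Utp20, Utp4 and Wdr43. In Nop2 and Utp18 the match lay before the start site, and in the other 7 it began within the first 41 bases from it. The sequences below show 3 genes that rose and hold the E-box, 1 that holds it and did not pass, and the gene with the largest rise, which has none. They are written 5′ to 3′ on the strand of the gene, with CACGTG in capitals and its first base counted from 1 at the start site. A match describes the letters of this window and is not evidence of binding. Whether MYC had a part in the rises was not tested.
Their positions on GRCm38.p6 are chr8:106893390-106893689 on the plus strand for Utp4 (rose by 1.56, E-box at 16), chr11:3963725-3964024 on the plus strand for Pes1 (rose by 1.29, E-box at 3), chr6:125131633-125131932 on the plus strand for Nop2 (rose by 1.10, E-box at -60), chr10:88826765-88827064 on the minus strand for Utp20 (log2 difference -0.01, E-box at 38) and chr5:110653333-110653632 on the minus strand for Noc4l (rose by 1.79, no E-box).
Utp4: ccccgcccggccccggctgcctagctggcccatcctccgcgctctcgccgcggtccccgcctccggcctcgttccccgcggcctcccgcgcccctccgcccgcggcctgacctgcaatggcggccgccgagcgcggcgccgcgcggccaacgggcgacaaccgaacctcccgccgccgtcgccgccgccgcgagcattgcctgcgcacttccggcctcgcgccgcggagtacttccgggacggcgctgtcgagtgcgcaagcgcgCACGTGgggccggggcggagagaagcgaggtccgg
Pes1: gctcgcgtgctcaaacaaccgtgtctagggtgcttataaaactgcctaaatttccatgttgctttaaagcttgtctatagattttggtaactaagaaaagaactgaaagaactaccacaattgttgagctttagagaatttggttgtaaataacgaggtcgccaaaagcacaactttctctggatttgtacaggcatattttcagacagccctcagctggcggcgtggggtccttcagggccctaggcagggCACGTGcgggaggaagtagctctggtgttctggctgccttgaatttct
Nop2: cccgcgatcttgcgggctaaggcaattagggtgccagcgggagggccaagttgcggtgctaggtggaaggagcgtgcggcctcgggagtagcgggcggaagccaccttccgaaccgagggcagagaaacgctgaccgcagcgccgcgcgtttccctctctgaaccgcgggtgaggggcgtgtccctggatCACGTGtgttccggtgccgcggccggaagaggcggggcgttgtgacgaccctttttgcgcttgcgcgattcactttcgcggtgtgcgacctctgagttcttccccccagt
Utp20: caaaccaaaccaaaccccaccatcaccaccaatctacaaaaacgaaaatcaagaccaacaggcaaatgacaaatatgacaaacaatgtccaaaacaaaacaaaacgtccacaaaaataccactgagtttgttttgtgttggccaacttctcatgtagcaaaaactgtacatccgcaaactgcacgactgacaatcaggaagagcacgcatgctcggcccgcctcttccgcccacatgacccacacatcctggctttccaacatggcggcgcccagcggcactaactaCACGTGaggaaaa
Noc4l: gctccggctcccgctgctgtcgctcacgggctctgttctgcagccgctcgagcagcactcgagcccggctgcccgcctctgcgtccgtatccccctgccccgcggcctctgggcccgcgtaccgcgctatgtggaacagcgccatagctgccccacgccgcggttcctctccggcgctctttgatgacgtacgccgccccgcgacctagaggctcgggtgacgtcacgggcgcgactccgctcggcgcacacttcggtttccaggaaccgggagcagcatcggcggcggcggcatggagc

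All 5 genes of late small subunit maturation rose. Nob1, the endonuclease that makes the final cut of the small subunit RNA, had 101, 80.8 and 95.2 TPM in SLC43A2 sgRNA and 44.5, 37.5 and 52.0 TPM in Mock sgRNA (log2 difference 1.04, SE 0.16, adjusted p = 0.0029). Ltv1, an export and assembly factor known from yeast, had 68.3, 53.8 and 64.0 TPM in SLC43A2 sgRNA and 21.6, 27.3 and 34.6 TPM in Mock sgRNA (1.15, SE 0.20, adjusted p = 0.0042). Neither gene had overlapping groups. Bysl, the mammalian form of yeast Enp1, rose by 1.06 (adjusted p = 0.0059) and Tsr1, a GTPase-like factor, by 0.92 (adjusted p = 0.0143). Rrp12, which takes part in subunit export in yeast, was the least abundant gene of the set and the one nearest the threshold among those called, with 10.9, 5.73 and 10.6 TPM in SLC43A2 sgRNA and 5.35, 3.79 and 5.07 TPM in Mock sgRNA (0.78, SE 0.26, adjusted p = 0.0462). Its call was lost in 11 of 20 alternatives, among them the removal of any 1 library except SLC43A2 sgRNA replicate 2 (adjusted p = 0.0950 to 0.166). The call for Tsr1 was lost without SLC43A2 sgRNA replicate 1 or 3 or Mock sgRNA replicate 1 or 2 (adjusted p = 0.0526 to 0.0621). In Tsr1 32.3% of the exon bases overlap Srr on the other strand, and in Bysl 9.37% overlap Ccnd3, and whether the counting used strand is not given in the sources used here. Srr averaged 3.49 TPM in SLC43A2 sgRNA and 2.94 TPM in Mock sgRNA and was not called (limma adjusted p = 0.399). Ccnd3 averaged 111 TPM in SLC43A2 sgRNA and 168 TPM in Mock sgRNA and was called lower (log2 difference -0.59, limma adjusted p = 0.0320).

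The 3 genes of the PeBoW complex, which large subunit assembly and the separation of its rRNAs require, all rose. Pes1 (ENSMUSG00000020430; chromosome 11, 3963975 to 3980004, plus strand) had 66.1, 44.8 and 62.1 TPM in SLC43A2 sgRNA and 20.4, 20.4 and 28.0 TPM in Mock sgRNA (log2 difference 1.29, SE 0.20, adjusted p = 0.0030). Bop1 had 66.3, 39.1 and 63.6 TPM in SLC43A2 sgRNA and 30.4, 23.1 and 29.0 TPM in Mock sgRNA (0.98, SE 0.23, adjusted p = 0.0132). Wdr12 had 89.7, 83.6 and 80.3 TPM in SLC43A2 sgRNA and 39.6, 45.6 and 52.8 TPM in Mock sgRNA (0.87, SE 0.14, adjusted p = 0.0035). SLC43A2 sgRNA replicate 2 was the low library of its group for Pes1 and Bop1, and for all 3 genes it still exceeded each Mock sgRNA library. The Wdr12 to Pes1 ratio was 1.51 ± 0.314 in SLC43A2 sgRNA and 2.02 ± 0.192 in Mock sgRNA, and the Bop1 to Pes1 ratio 0.967 ± 0.0823 in SLC43A2 sgRNA and 1.22 ± 0.236 in Mock sgRNA (SD, n = 3 each, no overlap). For both ratios the exact permutation p was 0.1, the minimum for 3 libraries a group. This test therefore cannot decide whether the rises within the complex were unequal. The Bop1 to Pes1 groups were nearly in contact, the highest SLC43A2 sgRNA library being at 1.02 and the lowest Mock sgRNA library at 1.04. The call for Bop1 was lost without SLC43A2 sgRNA replicate 1 (adjusted p = 0.0534), SLC43A2 sgRNA replicate 3 (adjusted p = 0.0604) or Mock sgRNA replicate 2 (adjusted p = 0.0538).

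Among the 15 other large subunit factors, 12 rose and 3 did not pass. Ddx56, an RNA helicase, had 82.1, 61.5 and 78.0 TPM in SLC43A2 sgRNA and 26.3, 22.4 and 36.4 TPM in Mock sgRNA (log2 difference 1.37, SE 0.21, adjusted p = 0.0027). Its groups stood well apart. Brix1 and Nop16, both early large subunit assembly factors, rose by 1.21 each, Noc2l, known as the partner of Noc3l in yeast, by 1.15, and Ebna1bp2, which works with Brix1 in yeast, by 1.13. Nop2, an rRNA cytosine methyltransferase, rose by 1.10, Rrp1 by 1.00 and Wdr74 by 0.97. Mrto4, which holds the place of a stalk protein until late in assembly, rose by 0.88, Nip7 by 0.87, Ftsj3, an rRNA ribose methyltransferase, by 0.84 and Noc3l by 0.54. The calls for Rrp1 and Ftsj3 were lost without SLC43A2 sgRNA replicate 1 or 3 or Mock sgRNA replicate 1 or 2, with an adjusted p of up to 0.0652 for Rrp1 and up to 0.0748 for Ftsj3. The call for Noc3l was lost without SLC43A2 sgRNA replicate 1 or 3 or Mock sgRNA replicate 2 or 3 (adjusted p = 0.0782 to 0.108), and the call for Wdr74 without Mock sgRNA replicate 1 (adjusted p = 0.0576). Gnl3 (nucleostemin, a nucleolar GTPase abundant in dividing cells) was the most abundant of the 15 and just missed the threshold, with 158, 140 and 175 TPM in SLC43A2 sgRNA and 114, 123 and 128 TPM in Mock sgRNA (0.37, SE 0.13, adjusted p = 0.0513). All 3 of its SLC43A2 sgRNA libraries were above the Mock sgRNA libraries. Rrs1, which in yeast helps to bring in the smallest rRNA, differed by 0.50 with overlapping groups (adjusted p = 0.0901), and Ddx18, another helicase, by 0.16 (adjusted p = 0.298). Leaving out SLC43A2 sgRNA replicate 2 brought Gnl3 (adjusted p = 0.0269) and Rrs1 (adjusted p = 0.0327) past the threshold. In Noc2l 20.9% of the exon bases overlap Samd11 on the other strand, which averaged 0.303 TPM in SLC43A2 sgRNA and 0.423 TPM in Mock sgRNA.

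The last 2 genes encode nucleolar proteins with roles in transcription, and 1 of them rose. Mybbp1a, a nucleolar MYB-binding protein, had 116, 107 and 96.5 TPM in SLC43A2 sgRNA and 64.8, 60.7 and 60.2 TPM in Mock sgRNA, with no overlap (log2 difference 0.77, SE 0.12, adjusted p = 0.0030). Ddx21, a helicase that links RNA polymerase I and II transcription to rRNA processing, had 37.3, 35.2 and 37.1 TPM in SLC43A2 sgRNA and 33.8, 28.0 and 31.5 TPM in Mock sgRNA (0.23, SE 0.13, adjusted p = 0.182). The Ddx21 groups also did not overlap, although the lowest SLC43A2 sgRNA library was close to the highest Mock sgRNA library. With T cell receptor scaling Ddx21 passed the threshold (0.40, adjusted p = 0.0490).

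The libraries of a group differed from each other in a way that ran through the set. SLC43A2 sgRNA replicate 1 was the highest of its group in 41 of the 48 genes and SLC43A2 sgRNA replicate 2 the lowest in 34. Mock sgRNA replicate 3 was the highest of its group in 33 genes and Mock sgRNA replicate 2 the lowest in 26. The coefficient of variation of a gene had a median of 12.1% in SLC43A2 sgRNA (1.02 to 32.0%) and 16.1% in Mock sgRNA (2.36 to 45.9%), the highest being Dkc1 in Mock sgRNA. Without SLC43A2 sgRNA replicate 1, and likewise without replicate 3, 27 genes were called. Across the 48 genes the log2 difference had a Spearman correlation of -0.19 with transcript length, 0.24 with GC content and 0.12 with mean TPM, given as a description of genes that share the same libraries. Over the 10442 protein-coding genes with these values the correlations were -0.19, -0.00 and 0.27. Called genes had a median transcript length of 2868 bases and a GC content of 51.4%, and the 12 others 2753 bases and 46.6%.

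Other genes of the pathway were examined from a list of 115, all of which passed the filter. Of these, 62 rose and 5 fell, and 36 rose without SLC43A2 sgRNA replicate 1, 35 without SLC43A2 sgRNA replicate 3 and 41 without Mock sgRNA replicate 1. The list as a whole stood at a median log2 difference of 0.57, and together these genes took 0.784% ± 0.0265 of the transcripts in SLC43A2 sgRNA and 0.539% ± 0.0450 in Mock sgRNA (1.46-fold, no overlap). Other genes of small nucleolar particles and of their assembly, Snu13 among them, rose in 8 of 10 cases (median 1.06, range -0.38 to 1.49). Rpap3, a chaperone adaptor, averaged 33.0 ± 6.58 TPM in SLC43A2 sgRNA and 11.1 ± 2.19 TPM in Mock sgRNA (1.49, adjusted p = 0.0019). Ruvbl2, an ATPase that acts with it, averaged 145 ± 11.5 TPM in SLC43A2 sgRNA and 55.2 ± 6.80 TPM in Mock sgRNA (1.38), and its partner Ruvbl1 rose by 1.33. Shq1, an assembly chaperone of dyskerin, rose by 1.40. Small subunit genes rose in 31 of 46 cases and fell in 0 (median 0.71; 33 higher and 2 lower at an unadjusted p under 0.05). Over 20 alternatives 16 to 35 were higher and up to 2 lower, with 16 higher without SLC43A2 sgRNA replicate 1, 16 without SLC43A2 sgRNA replicate 3, 19 without Mock sgRNA replicate 1 and 20 without Mock sgRNA replicate 2.

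The other large subunit genes and RNA polymerase I genes were more mixed. Of 46 large subunit genes 20 rose and 5 fell (median 0.53), and 11 rose without SLC43A2 sgRNA replicate 1, 11 without SLC43A2 sgRNA replicate 3 and 13 without Mock sgRNA replicate 1. Ppan rose the most, by 1.32, with 98.0 ± 22.3 TPM in SLC43A2 sgRNA and 40.0 ± 16.5 TPM in Mock sgRNA (adjusted p = 0.0122), and its call was lost without SLC43A2 sgRNA replicate 1 (adjusted p = 0.0520), SLC43A2 sgRNA replicate 3 (adjusted p = 0.0555) or Mock sgRNA replicate 1 (adjusted p = 0.0624). The falls included Mdn1, the giant ATPase that remodels the maturing large subunit, with 24.3 ± 4.35 TPM in SLC43A2 sgRNA and 51.2 ± 13.4 TPM in Mock sgRNA (-1.03, adjusted p = 0.0093). Its call was lost when trends with transcript length and GC content were removed (-0.48, adjusted p = 0.0610). Cebpz, related to yeast Noc1, averaged 36.5 ± 7.52 TPM in SLC43A2 sgRNA and 70.9 ± 2.01 TPM in Mock sgRNA (-0.96, adjusted p = 0.0043). In yeast Noc1 is the early partner of Noc2, and the mouse genes Noc2l and Noc3l both rose. Nol8 differed by -0.75, Nsa2 by -0.71 and Ddx24 by -0.53, the last with a call lost in 8 of 20 alternatives, among them without SLC43A2 sgRNA replicate 2 or 3 or Mock sgRNA replicate 1 or 2 (adjusted p = 0.0515 to 0.0989). Of 13 other RNA polymerase I genes 3 rose and 0 fell (median 0.08; 5 higher and 2 lower at an unadjusted p under 0.05), against 1 to 5 higher and up to 2 lower over 20 alternatives, with 1 higher without SLC43A2 sgRNA replicate 1 or 3 or Mock sgRNA replicate 1. The 3 that rose were Polr1e, a polymerase-associated subunit (1.29), Taf1a, of the promoter selectivity factor (0.75), and the initiation factor Rrn3 (0.73), and the calls for Taf1a and Rrn3 were lost in 12 and 7 of 20 alternatives, each library left out in turn giving an adjusted p of up to 0.127 for Taf1a and up to 0.102 for Rrn3. The share of this list called higher was 23.1%, close to the 22.8% of all tested genes. Its median was also close to that of all genes, so nothing is read from the list as a whole.

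**Figure D3:**
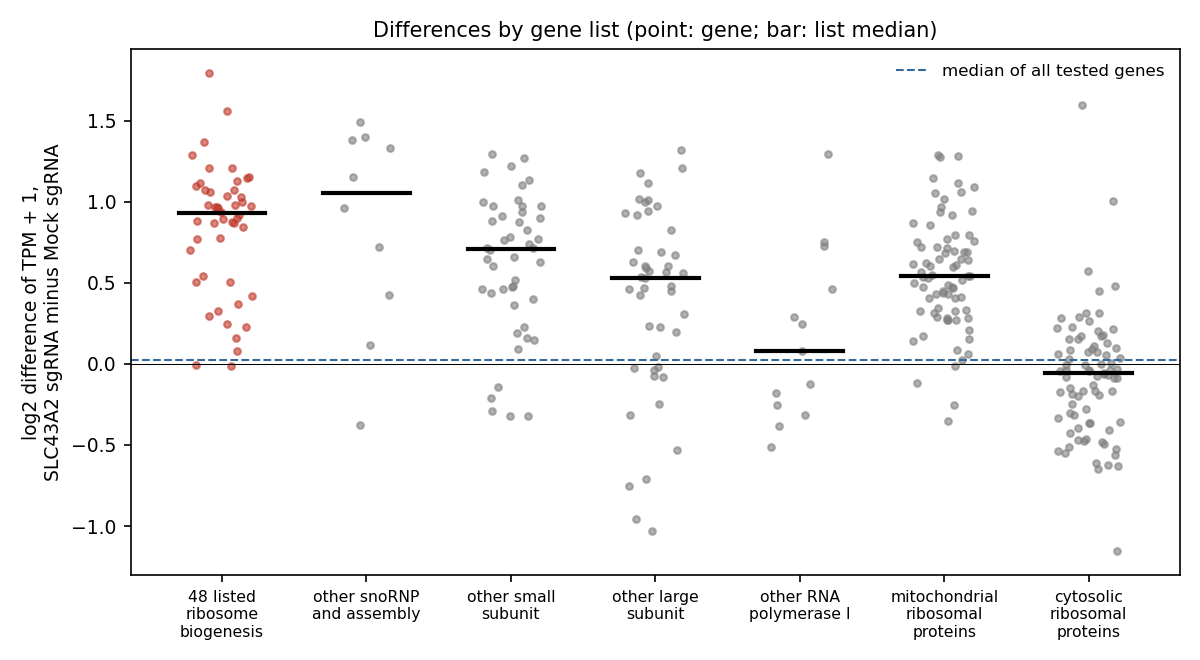
Log2 differences of TPM + 1, SLC43A2 sgRNA minus Mock sgRNA, for the 48 genes and 6 other lists (points: genes; bars: list medians; dashed line: median of all tested genes, 0.03). The median is 0.93 for the 48 genes, 1.06 for other snoRNP and snoRNP assembly genes, 0.54 for mitochondrial ribosomal proteins and -0.06 for cytosolic ribosomal proteins.

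The ribosome's own protein genes differed in a direction that depended on the scaling. Of 82 tested genes for cytosolic ribosomal proteins 4 rose and 15 fell, and the median log2 difference of -0.06 became 0.12 with libraries scaled to T cell receptor transcripts and 0.20 with length and GC trends removed, so no direction is given for them. The counts moved as well, to 24 higher and 10 lower with those trends removed and to 11 higher and 3 lower with T cell receptor scaling. The lower calls numbered 27 without Mock sgRNA replicate 3, 9 without SLC43A2 sgRNA replicate 2, 7 without Mock sgRNA replicate 2 and 3 without any 1 of the other libraries. They took 13.9 to 14.6% of the SLC43A2 sgRNA and 13.4 to 17.7% of the Mock sgRNA libraries, with overlap. Mitochondrial ribosomal proteins, which are translated in the cytosol and assembled in another compartment, rose in 53 of 76 genes, with a median of 0.54 (0.31 to 0.73 over 20 alternatives). The count of rises ranged from 34 to 66 over these alternatives and was 35 without Mock sgRNA replicate 1 and 36 without SLC43A2 sgRNA replicate 3. In the fit as reported 0 of this list fell, and at an unadjusted p under 0.05 60 were higher and 1 lower. Myc, the transcription factor named above, averaged 214 ± 24.3 TPM in SLC43A2 sgRNA and 80.5 ± 13.3 TPM in Mock sgRNA (log2 difference 1.41, SE 0.16, adjusted p = 0.0010).

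**Figure D4:**
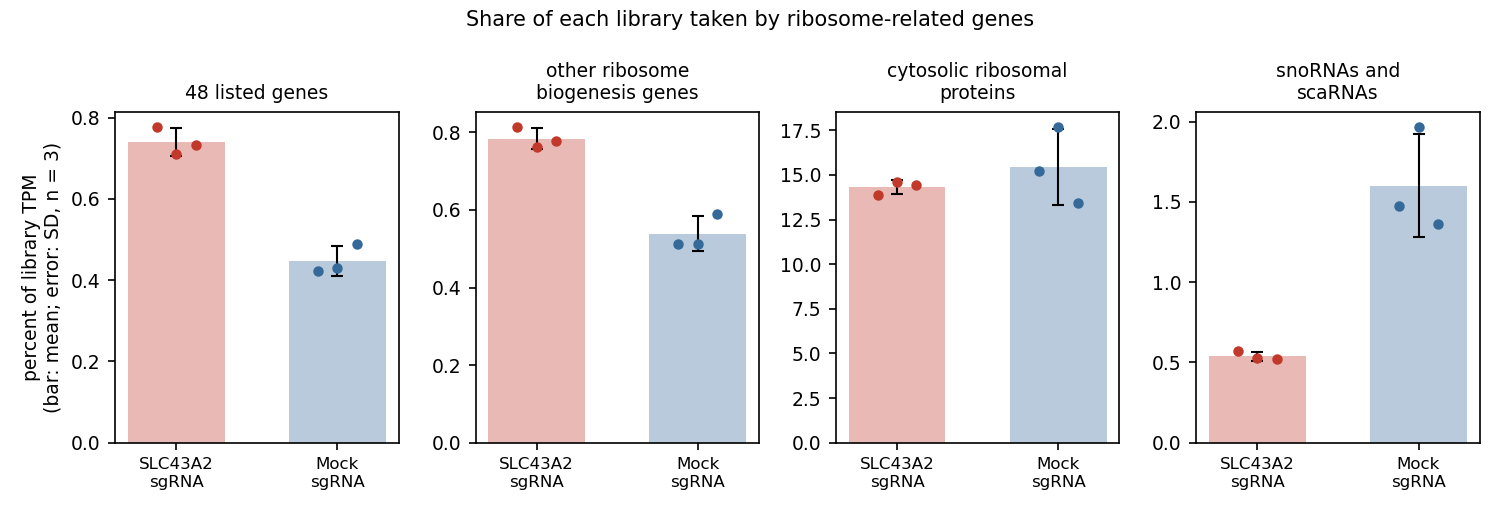
Percent of each library's TPM taken by the 48 genes, 115 other ribosome biogenesis genes, cytosolic ribosomal protein genes, and snoRNA and scaRNA genes (bars: group means; error bars: SD; points: libraries, n = 3 a group). The 48 genes take 0.711 to 0.776% in SLC43A2 sgRNA and 0.422 to 0.490% in Mock sgRNA, ribosomal proteins overlap between the groups, and snoRNAs with scaRNAs average 0.538% in SLC43A2 sgRNA and 1.60% in Mock sgRNA. The 133 snoRNA and scaRNA genes tested had a median log2 difference of -0.0002.

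Small nucleolar RNAs, the guides that the box C/D and H/ACA proteins carry, were mostly listed at 0 where they lie inside these genes. In GENCODE M21, 21 snoRNA genes lie on the same strand inside 7 of the 48 genes, as snoRNAs are commonly cut from introns. Of the 20 in the table, 18 were listed at 0 in all 6 libraries. Gm24451, inside Nop56, had 195, 380 and 311 TPM in SLC43A2 sgRNA and 168, 52.4 and 571 TPM in Mock sgRNA, and Snora75, inside Ncl, was listed at 0 in 1 library of each group. Neither passed (adjusted p = 0.475 and 0.640), and the groups overlapped. In all, 133 snoRNA and scaRNA genes were tested, of which 3 were higher and 8 lower. Of all tested genes, 22.8% were higher and 22.2% lower. All snoRNA and scaRNA genes together took 0.538% ± 0.0281 of the SLC43A2 sgRNA and 1.60% ± 0.320 of the Mock sgRNA libraries. The 133 tested ones had a median log2 difference of -0.0002 (range -8.42 to 4.29), with 66 above 0. The summed shares therefore do not describe the typical gene, and such short RNAs may be poorly measured.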

How the data were processed

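RNA was measured in 6 libraries, 3 a group, grouped by their titles. The authors deposited 1 table of TPM per gene, with 2 decimals. Bowtie 0.12.2 and mm8 are named, per the submitters' processing notes, without a role. Other upstream steps are not given in these sources. The labels' protocol text names the Illumina TruSeq RNA kit and opens with a clipped word read here as retinas, so it may not describe these samples. Coordinates, lengths and overlaps come from GENCODE M21 (GRCm38), which holds 51933 (90.8%) of the gene IDs, and may not be the build behind the table.

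Genes with a mean of at least 1 TPM were tested on log2(TPM + 1), a scale that understates the change of low genes, with limma 3.58.1 in R 4.3.3 (eBayes with a trend, two-sided). Adjustment was by Benjamini-Hochberg over every gene in the fit (threshold 0.05), and the fit was tested on simulated data. Alternatives covered pseudocounts, filters, 6 scalings, removal of length and GC trends, variance models, removal of each library in turn and a replicate block. Single values had an exact permutation test. Same-numbered libraries deviated from their group means with correlations of 0.00106, 0.0606 and -0.0313. Differently numbered ones ranged from -0.0551 to 0.0580, so no pairing by number was seen. With 3 libraries a group these correlations cannot exclude a pairing.

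The 48 genes were chosen by name for their known roles. They and all lists were chosen with earlier results of these data known. Any of the 48 could be named. Values per library were given for the most abundant gene and the largest rise of each role, and for other pathway genes the 5 largest rises and falls were named. Values per library for Polr1a, Ncl, Nop58, Fbl, Nhp2, Dkc1, Utp4, Utp20, Rrp12, Bop1 and Ddx21 were added after their values were seen, as were the names Polr1e, Taf1a and Rrn3. Protein sequence features were not analysed here.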

Additional observations from a re-analysis of the deposited data

How the results depend on the processing

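Over 20 alternatives, between 27 and 42 of the 48 genes were called higher and 0 lower, and 26 of the 36 called genes were called in every alternative. The other 10 lost their call in at least 1: Rrp12 in 11, Noc3l in 8, Rrp9 in 7, Utp15 in 5, Ftsj3, Rrp1 and Tsr1 in 4 each, Bop1 in 3, Polr1b in 2 and Wdr74 in 1. Dkc1 gained a call in 7. The median log2 difference of 0.93 was 0.74 with quantile normalization, 1.10 with libraries scaled to T cell receptor transcripts and 0.78 when scaled to protein-coding transcripts. These 3 settings moved the median of all genes to 0.13, 0.17 and -0.10, ribosomal protein scaling to 0.11, removal of length and GC trends to 0.14 and a filter at 5 TPM to 0.19. Relative to all genes, the median of the 48 genes ranged from 0.61 to 0.98. Higher and lower calls over all genes numbered 3139 and 3060, against 4012 and 2446 with T cell receptor scaling and 2390 and 3579 with protein-coding scaling; a filter at 5 TPM left 1882 lower, with fewer genes tested. Leaving out 1 library gave 1854 to 3183 higher, lowest without SLC43A2 sgRNA replicate 3 and with 1936 without replicate 1. Of the 115 other pathway genes, 35 to 61 were then higher, with 36 without SLC43A2 sgRNA replicate 1, 35 without replicate 3 and 41 without Mock sgRNA replicate 1. Their 5 lower calls became 8 with median-of-ratios scaling and with array weights, 10 with quantile normalization, and 9 with protein-coding scaling or with hemoglobin, mitochondrial and antigen receptor genes removed. The cause was not tested. With the replicate block, 36 of the 48 genes were higher and all 36 calls were kept, with 3319 genes higher and 3038 lower in all and 63 higher and 6 lower in the pathway list.

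Among the 48 genes only 5 that were not called changed sign. Polr1a (-0.00) was 0.12 with quantile normalization, 0.15 with T cell receptor scaling, 0.086 with ribosomal protein scaling, 0.41 without length and GC trends, and from -0.15 to 0.091 when 1 library was left out. Utp20 (-0.01) was 0.045, 0.15, 0.080 and 0.40 in the same 4 settings, the last with an adjusted p of 0.0472, and from -0.0993 to 0.040 when 1 library was left out. Utp14a (0.08) was -0.020 with quantile normalization, -0.018 when antigen receptor, mitochondrial and hemoglobin genes were removed, -0.070 with protein-coding scaling and -0.11 without length and GC trends. With quantile normalization Ncl was -0.0061 and Ddx18 -0.012. Without length and GC trends Ncl (0.63) and Nop10 (0.62) gained a call. T cell receptor scaling gave calls to Dkc1 (1.05) and to Nop10, Nop14, Rrs1, Gnl3 and Ddx21 (0.40 to 0.67). Array weights gave calls to Dkc1, Nop14, Rrs1 and Gnl3. Depth is unknown, so its limit on low genes such as Rrp12 could not be measured.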

Other observations

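Genes of the MYC network and of the cell cycle, taken from lists outside ribosome biogenesis, held calls in both directions. Of 7 tested network genes 3 were higher (42.9%) and 4 lower (57.1%) in SLC43A2 sgRNA, where 22.8% of all tested genes were higher and 22.2% lower. The counts were 2 higher and 1 lower without SLC43A2 sgRNA replicate 1 or 3, and 3 higher and 2 lower without Mock sgRNA replicate 1. Myc was higher (log2 difference 1.41), as was Mxi1, a MAX-binding antagonist of MYC, which averaged 24.0 ± 5.43 TPM in SLC43A2 sgRNA and 6.44 ± 2.01 TPM in Mock sgRNA (SD, n = 3 each; 1.76, limma adjusted p = 0.0025). Mxd4, another antagonist, averaged 6.52 ± 1.38 TPM in SLC43A2 sgRNA and 19.4 ± 4.68 TPM in Mock sgRNA (-1.43, adjusted p = 0.0032). These 3 calls held in all 20 alternatives, while those of Mxd1, Max, Mnt and Mxd3 were each lost in 2 to 7.

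Of 20 cell cycle genes 6 were higher (30.0%) and 5 lower (25.0%), shares near those of all tested genes, so nothing is read from the list as a whole. Without SLC43A2 sgRNA replicate 1, SLC43A2 sgRNA replicate 3 or Mock sgRNA replicate 1, 3 were higher. The list's median, 0.26 above that of all genes, was -0.0013 relative to it with length and GC trends removed. Single genes are given as values. Mcm6, of the replicative helicase, averaged 102 ± 23.4 TPM in SLC43A2 sgRNA and 37.6 ± 5.77 TPM in Mock sgRNA (1.40, adjusted p = 0.0024), and Rrm2, of ribonucleotide reductase, 37.4 ± 4.31 TPM in SLC43A2 sgRNA and 15.3 ± 3.33 TPM in Mock sgRNA (1.25, adjusted p = 0.0023). The mitotic genes Ccnb2 and Top2a were lower, Ccnb2 at 4.61 ± 0.760 TPM in SLC43A2 sgRNA and 12.2 ± 2.73 TPM in Mock sgRNA (-1.23, adjusted p = 0.0034), and Top2a at 11.2 ± 1.15 TPM in SLC43A2 sgRNA and 22.3 ± 1.56 TPM in Mock sgRNA (-0.94, adjusted p = 0.0023). The calls of these 4 genes held in all 20 alternatives. These genes were picked after their values were seen. Of the 20 cell cycle genes 9 were not called, namely Mcm3, Mcm5, Mcm7, Ccnb1, Cdk1, Ccna2, Bub1, Aurkb and Cdc20.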
